A study of Arabidopsis thaliana with 9 samples.

Results

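The 72 genes described here were those whose transcripts were more abundant in csld5 mutant inflorescence meristems of Arabidopsis thaliana than in the wild type, and were still above the wild type when CSLD5 was put back. They were chosen from 25760 listed genes by their mean level in scaled counts (CPM, the reads of a gene divided by all counted reads of its library, scaled to a common total). A nuclear gene was taken when the log2 ratio to col-0, computed as log2((CPM + 0.1)/(col-0 CPM + 0.1)), was at least 1.5 both in csld5 and in the complemented line, and when its complemented mean was at least 0.5 CPM. These ratios chose the genes, so they are given below as descriptions without a test. Of 243 nuclear genes that met the csld5 ratio and the level minimum, 72 (29.6%) also met the complemented ratio and 171 did not.

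RNA from dissected inflorescence meristems was sequenced in 9 libraries of 3 genotypes, with 3 libraries each. The genotypes were col-0 (wild type), csld5 (mutant) and pATML1::GFP+CSLD5-csld5, which is the csld5 mutant carrying CSLD5 with GFP under the ATML1 promoter and is called complemented here. The ATML1 promoter is active in the epidermal layer, so the transgene is not driven by the promoter of CSLD5 itself. The mutation is shared by the csld5 and complemented plants. The csld5 allele, the number of transgenic lines, the age of the plants and the plants behind each library are not stated in the sources used here. P-values therefore measure only the spread between these libraries, which may be technical.

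CSLD5 is a cellulose synthase-like protein of family D. Such proteins make wall polysaccharide, and CSLD5 is known for a role in the new cell wall laid down between dividing cells. The inflorescence meristem keeps stem cells at its centre and makes flowers on its flanks, and pollen forms later, in the anthers of older buds.

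Total counts ran from 35543318 to 45679471 per library. The level of CSLD5 (AT1G02730, chromosome 1, 594502 to 598657, minus strand, TAIR10.1) was 132.9 ± 6.2 CPM in col-0 and 26.2 ± 0.935 CPM in csld5, against 958.5 ± 74.99 CPM in the complemented line (SD, n = 3), and reads of the transgene may be counted there. The 8 meristem markers examined were all present, with STM at 53.4 to 55.8 CPM in the col-0 libraries. Their summed CPM was 592 to 612 in the col-0 libraries, 467 to 528 in those of csld5 and 566 to 576 in the complemented ones. The markers did not all go one way. Mean CPM in col-0 and csld5 was 235 and 183 for AP1, 97.4 and 62.0 for ANT and 72.3 and 44.3 for FIL. CLV1 (46.1 and 38.2) and LFY (5.30 and 3.76) were lower in csld5 too. Mean CPM was higher in csld5 for STM (54.2 and 58.0), WUS (15.9 and 22.6) and KNAT1 (72.5 and 76.7). In bulk samples, fewer cells of a type and less RNA per cell cannot be told apart.

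Although the 72 genes were chosen as not restored, most of them were lower in the complemented line than in csld5. No threshold was set on this contrast. It is in essence the difference of the selection ratios, in the same libraries, so the selection shapes it. The shares over all tested genes given below are not like for like, since those genes were not chosen as high in csld5. With edgeR's quasi-likelihood test on counts and Benjamini-Hochberg adjustment over 22671 genes, 46 of the 72 were lower in complemented than in csld5, 2 were higher and 24 were not called at an adjusted p below 0.05. Among all tested genes 21.1% were called lower and 19.8% higher. The median log2 fold change of the 72 was -1.03 (quartiles -1.49 and -0.52), beside 0.02 over all tested genes. All 3 complemented libraries lay below all 3 csld5 libraries for 33 of the 72 (17.1% of all tested genes) and above them for 4 (35.6%). All csld5 libraries lay above all col-0 libraries for each of the 72 (18.4% of all tested genes) and all complemented libraries did for 71 (10.8%), which the selection itself favours. Of the 171 genes that met the csld5 ratio but not the complemented ratio, 136 were called lower and the median was -1.06. Their definition places the complemented mean below the csld5 mean in every one of them, so this direction is given as a description only. Being called never restored thus describes only the selection relative to col-0: 46 of the 72 were called lower than in csld5, and 26 were not called lower. By means alone, 62 of the 72 were below csld5 in the complemented line and 10 were above it.

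The excess over col-0 that remained in the complemented line, taken as the complemented minus the col-0 mean over the csld5 minus the col-0 mean, had a median of 44.5% and ran from 18.9% to 199%. It was 18.9% to 86.4% (median 37.2%) in the 46 genes called lower and 33.0% to 193% (median 79.2%) in the 24 not called. The median level was 5.41 CPM in csld5 and 2.82 CPM in the complemented line, against 0.663 CPM in col-0. In col-0, 47 of the 72 genes had a mean under 1 CPM and 19 had fewer than 30 reads over the 3 libraries together, so their ratios rest on few wild-type reads.

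**Figure D1:**
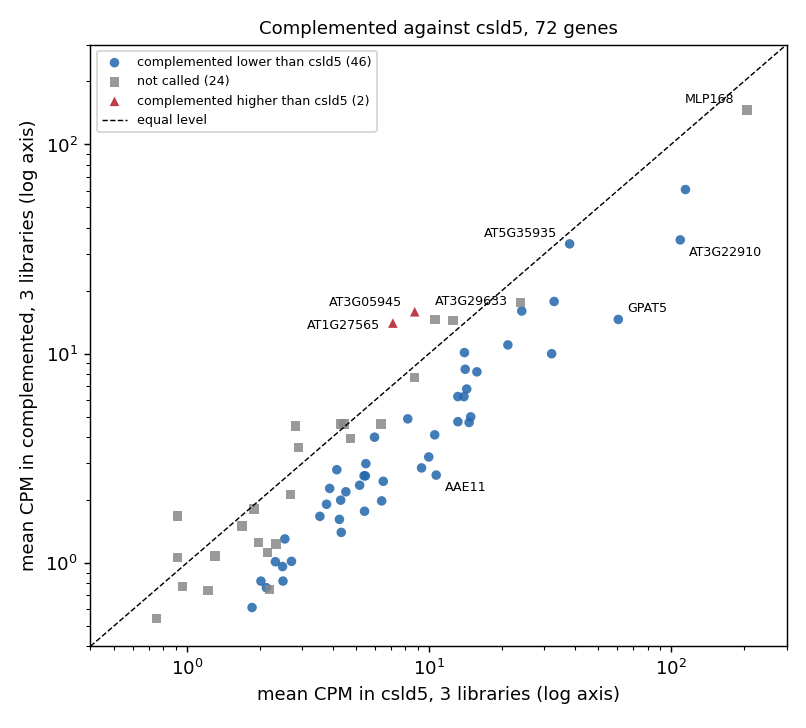
Each point is 1 of the 72 genes, with its mean CPM over 3 csld5 libraries on the x axis and over 3 complemented libraries on the y axis, both logarithmic, and the dashed line marks equal levels. The 46 genes called lower lie below the line, the 2 called higher (AT1G27565 and AT3G05945) lie above it, and the 24 not called lie on both sides.

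The selection depended on complemented replicate 1. This library had the highest complemented CPM for 63 of the 72 genes, for 149 of the 171 others, and for 38.2% of all tested genes. Its level over the mean of replicates 2 and 3 had a median of 1.80 in the 72 genes, 1.53 in the 171 others and 1.01 in all tested genes. Library by library, 70 of the 72 genes reached a log2 ratio of 1.5 over the col-0 mean in complemented replicate 1, 39 in replicate 2 and 28 in replicate 3. The csld5 libraries gave 68, 72 and 67. Without complemented replicate 1 only 34 genes met the rule, all of them among the 72. Those 34 included 18 of the 46 genes called lower and 16 of the other 26. Leaving that library out of the test gave 53 genes called lower and 2 higher, with a median of -1.42.

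**Figure D2:**
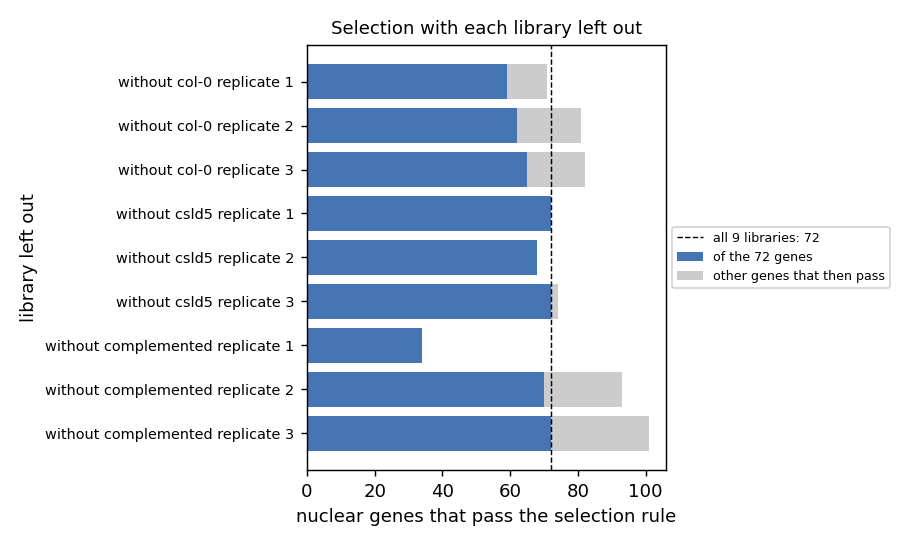
Bars give the number of nuclear genes that met the selection rule when 1 library was left out, with those among the 72 in blue and additional ones in grey, and the dashed line marks 72. The bar without complemented replicate 1 ends at 34, and those without complemented replicates 2 and 3 at 93 and 101.

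Pollen markers also varied between these libraries. The 16 pollen markers examined, none of them among the 72 genes, were all present, and their summed level was 314 to 483 CPM in col-0. It was 466, 814 and 691 CPM in csld5 replicates 1 to 3 and 537, 452 and 434 CPM in complemented replicates 1 to 3. In both mutant genotypes the replicate order of this sum was that of the median log2 ratio of the 72 genes to the col-0 mean. These medians were 2.44, 3.07 and 2.74 in csld5 and 2.32, 1.57 and 1.38 in complemented replicates 1 to 3. Complemented replicate 1 was highest for 63 of the 72 and for 38.2% of all tested genes. Only the order was compared, not the size. The sum in col-0 replicate 2 (483 CPM) lay above those of csld5 replicate 1 and complemented replicates 2 and 3. VGD1 was the largest part of the sum, with mean CPM of 128 in col-0 and 255 in csld5. Mean CPM was higher in csld5 than in col-0 for all pollen markers but MYB101 (10.7 in col-0 and 10.1 in csld5) and ADF10 (9.33 and 8.18). It was higher in complemented than in csld5 for AGP6, MYB97, MYB101, PRF5, ADF7 and ADF10, and lower for the other pollen markers. The 7 tapetum markers mark the nutritive cell layer of the anther. They summed to 578, 556 and 435 CPM in complemented replicates 1 to 3 and to 267, 429 and 362 CPM in those of csld5. The replicate order was thus the same as for the pollen sum. In col-0 the tapetum sum was 352 to 451 CPM. The 2 listed seed storage markers were at 0.52 CPM or less in sum, except at 7.02 CPM in complemented replicate 2. The part of pollen, anther and seed RNA in the result was not tested.

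**Figure D3:**
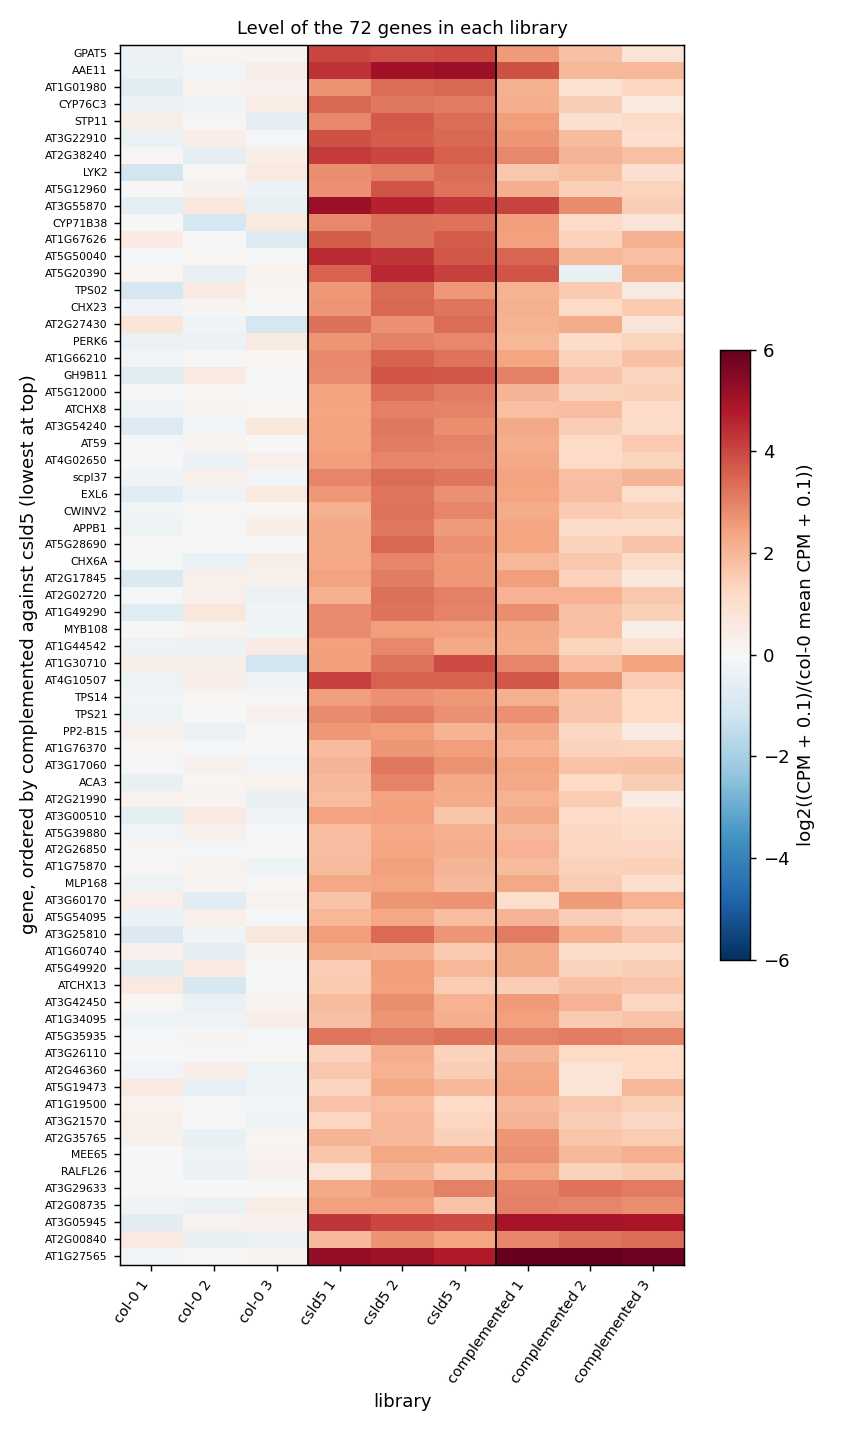
Rows are the 72 genes and columns the 9 libraries; colour gives log2((CPM + 0.1)/(col-0 mean CPM + 0.1)), and rows run from the largest fall to the largest rise in complemented against csld5. Complemented replicate 1 is redder than replicates 2 and 3 in most rows, while AT1G27565, AT3G05945 and AT3G29633, which are among the lowest rows, are even over the 3 complemented libraries.

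The clearest exceptions were genes that stayed high, evenly, in all complemented libraries. AT1G27565 (chromosome 1, 9574550 to 9575189, plus strand) is a protein-coding gene with no annotated function. It had 4, 5 and 5 reads in the col-0 libraries, 314, 279 and 219 in those of csld5 and 670, 526 and 569 in the complemented ones. These were 0.0938, 0.115 and 0.141 CPM, then 8.28, 7.33 and 5.69 CPM, then 15.5, 14.0 and 12.5 CPM. The 3 groups did not overlap, and the complemented libraries were the highest. Complemented exceeded csld5 by 0.88 ± 0.14 on the log2 scale (SE; edgeR adjusted p = 0.00035). With a correction for GC content and exon length this was 0.08 (adjusted p = 0.63), and over all 19 alternatives it ran from 0.08 to 1.01.

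AT1G27565 has a near-identical copy on the same chromosome, so its reads are uncertain. All 640 bases of its locus matched chr1:19706070-19706708 at 98.4% identity, inside AT1G52905 (19706047 to 19706885, TAIR10.1). AT1G52905 was counted at 1074, 973 and 757 reads in col-0 and at 585, 462 and 422 in csld5, against 1029, 940 and 1100 in the complemented line. It was lower in csld5 than in col-0 by a log2 fold change of -0.76 ± 0.11 (edgeR adjusted p = 0.00017). It was higher in complemented than in csld5 by 0.83 ± 0.11 (adjusted p = 0.0001). Against col-0 the copy was thus lower in csld5, where AT1G27565 was higher, while both were higher in complemented than in csld5. How the authors' counting divided reads between the copies is not stated in the sources used here.

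The 250 bases before the annotated start of each copy are shown because they are alike too, outside the transcribed region. They come from the RefSeq TAIR10.1 genome, at chr1:9574300-9574549 and chr1:19705797-19706046, both on the plus strand, 5′ to 3′. Capitals mark bases that differ from the other copy or have no partner in it.
AT1G27565: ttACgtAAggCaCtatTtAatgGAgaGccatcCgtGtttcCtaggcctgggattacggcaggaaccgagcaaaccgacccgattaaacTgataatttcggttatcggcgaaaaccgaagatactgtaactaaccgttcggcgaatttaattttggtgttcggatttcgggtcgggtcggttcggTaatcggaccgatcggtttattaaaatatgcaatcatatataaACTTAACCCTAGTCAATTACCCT
AT1G52905: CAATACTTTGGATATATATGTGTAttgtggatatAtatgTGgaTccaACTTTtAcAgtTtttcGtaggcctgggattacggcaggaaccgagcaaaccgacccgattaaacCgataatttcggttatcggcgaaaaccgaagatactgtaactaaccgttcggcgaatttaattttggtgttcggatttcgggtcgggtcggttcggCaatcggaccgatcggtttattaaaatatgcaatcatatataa
In a global alignment 220 bases were paired, of which 211 (95.9%) were identical. The paired bases that differ lie mostly toward the 5′ end of the windows. The run of capitals at the 3′ end of the AT1G27565 window has no partner because the match begins at 19706070, inside AT1G52905.

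AT3G05945 (chromosome 3, 11510090 to 11510510, minus strand) is annotated as a long non-coding RNA. Its reads were 10, 22 and 19 in col-0 and 390, 314 and 296 in csld5, against 684, 611 and 705 in the complemented line. The 3 groups did not overlap and the complemented libraries lay within 15.4 to 16.3 CPM. Complemented exceeded csld5 by 0.76 ± 0.15 (edgeR adjusted p = 0.0011). This call also depended on the processing: with the GC and length correction the difference was -0.10 (adjusted p = 0.64), and with limma on log2(TPM + 0.1) it was 0.77 (adjusted p = 0.091). Over the 19 alternatives it ran from -0.10 to 0.90.

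AT3G29633, an uncharacterised protein-coding gene, lies 56562 bp away (chromosome 3, 11452509 to 11453528, minus strand). It was at 1.62, 1.56 and 1.58 CPM in col-0 and at 8.17, 10.2 and 13.4 CPM in csld5, against 13.3, 15.8 and 14.5 CPM in complemented. The csld5 and complemented libraries overlapped, and the difference of 0.36 ± 0.15 was not called (edgeR adjusted p = 0.064), except with library totals, with a block for replicate number, and without csld5 replicate 3 (0.57, adjusted p = 0.0048). Both loci lie in a stretch with few genes, with 107 protein-coding genes within 500 kb of AT3G05945 and 112 of AT3G29633, against a median of 272 for all listed nuclear genes. Of 7 counted genes between them, 4 could be tested and none was called higher in csld5 or in complemented than in col-0, while AT3G29644 was lower in csld5 (-0.58, adjusted p = 0.0016). The pair was singled out after its values were seen.

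AT5G35935, a pseudogene on the minus strand of chromosome 5 (14083388 to 14089891), had the smallest fall of the 46 genes called lower. It was at 3.70, 4.54 and 3.88 CPM in col-0 and at 38.6, 35.9 and 39.9 CPM in csld5, against 32.5, 35.2 and 32.8 CPM in complemented. Csld5 and complemented libraries did not overlap but lay close together. The difference was -0.28 ± 0.07 (edgeR adjusted p = 0.0071), and 86.4% of the excess over col-0 remained. The call was lost when scaling used library totals (-0.19, adjusted p = 0.054), with the GC and length correction (adjusted p = 0.052) and in deposited TPM with a pseudocount of 0.1 (adjusted p = 0.079), within a range over alternatives of -0.33 to -0.19.

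**Figure D4:**
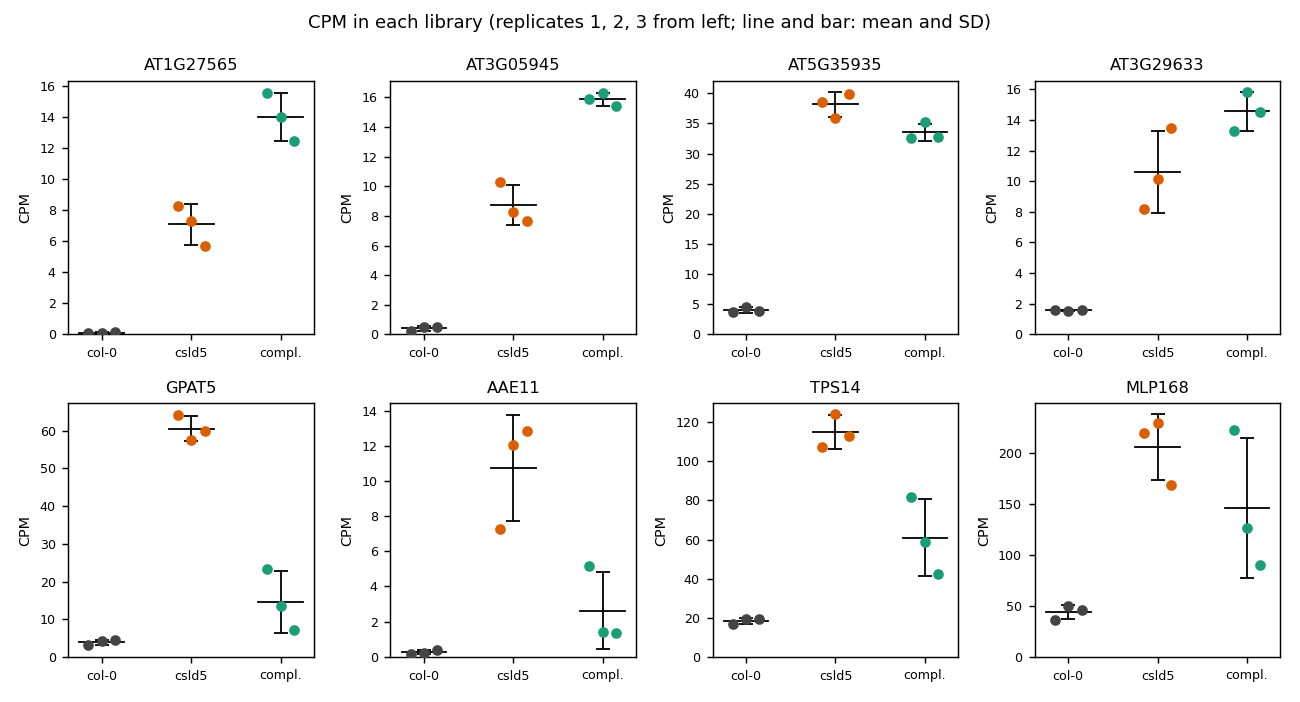
Points are the CPM of single libraries (replicates 1, 2 and 3 from left) of 8 genes in col-0, csld5 and complemented (compl.), with horizontal lines at the mean and bars of 1 SD. In the upper row the complemented libraries stand close to or above csld5; in the lower row complemented replicate 1 is the highest of its group for each of GPAT5, AAE11, TPS14 and MLP168.

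Most of the genes coded for proteins. Of the 72, 63 (87.5%) were protein coding, 4 (5.56%) pseudogenes, 2 (2.78%) long non-coding RNAs, 2 other transcripts (misc_RNA) and 1 an ncRNA. Among all listed nuclear genes 91.3% were protein coding, 1.95% pseudogenes and 3.84% long non-coding RNAs. The 9 genes without a protein model had a median log2 fold change of -0.38 in complemented against csld5. Of them 2 were lower, 1 higher and 6 not called, beside 46 lower and 2 higher of all 72. Over all tested genes 21.1% were lower and 19.8% higher. Of these 9, 8 still met the selection rule without complemented replicate 1. AT2G08735, a long non-coding RNA, had complemented libraries at 4.85, 4.56 and 4.09 CPM and csld5 libraries at 3.27, 3.28 and 1.87 CPM. The groups did not overlap, and the difference of 0.58 ± 0.25 was not called (edgeR adjusted p = 0.074), except with library totals (0.68, adjusted p = 0.040) and without col-0 replicate 3 (0.58, adjusted p = 0.049).

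The other genes without a protein model were at low levels. AT4G10507, an ncRNA, was at 2.98, 2.0 and 2.03 CPM in csld5 and at 2.27, 1.01 and 0.416 CPM in complemented, and its groups overlapped. It was not called (-1.02 ± 0.45, edgeR adjusted p = 0.086) except under 4 alternatives, among them the one without complemented replicate 1 (-1.82, adjusted p = 0.0069). The pseudogene AT1G67626 was lower in complemented than in csld5 by -1.68 ± 0.41 (edgeR adjusted p = 0.0051). A stretch of 467 bases of it matches chr1:21450210-21450675 and chr4:11111763-11112229 at 98.9% and 99.1% identity, so its reads are uncertain as well. The pseudogene AT3G60170, with 0.543 CPM, had the lowest complemented mean of the 72.

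The 72 genes were scattered over the genome. Chromosomes 1 to 5 held 19, 15, 21, 4 and 13 of them. The share on chromosome 4 was 5.56%, beside 15.3% of all listed nuclear genes, and that on chromosome 3 was 29.2%, beside 20.1%. No 2 of them lay within 20 kb of each other, and the nearest pair, AT5G49920 and AT5G50040, were 48933 bp apart. AT1G01980 (chromosome 1, 340108 to 342040) was the only one within 1 Mb of CSLD5. The number of protein-coding genes within 500 kb had a median of 266.5 for the 72 and 272 for all, and 10 of the 72 were below 201, the lowest decile of all genes. Exon length had a median of 1875 bases in the 46 genes called lower and 846.5 bases in the other 26, against 1620 bases over all listed nuclear genes.

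Few genes next to the 72 were called in complemented against col-0, a contrast in which few of all tested genes were called. Of 120 tested nearest neighbours that did not overlap a member, 39 (32.5%) were higher in csld5 than in col-0, where the background was 21.1%, and 17 (14.2%) were lower, with a background of 20.4%. In complemented against col-0, 3 (2.5%) were higher and 1 (0.833%) lower, with backgrounds of 0.948% and 0.578%. The 3 were AT3G28917 (MIF2), the terpene synthase gene TPS03 and AT5G50030, and the lower one was CAF1a, which codes for a deadenylase subunit. TPS03, next to TPS02, was at 20.4 CPM in csld5 and 14.5 CPM in the complemented line, against 7.62 CPM in col-0. ANX2, a receptor kinase of pollen tubes, lies 334 bp from AT5G28690 and was higher in csld5 than in col-0 by 2.36 ± 0.29 (edgeR adjusted p = 4.1e-05). Within 10 kb, 4 of 342 tested genes (1.17%) were higher in complemented than in col-0 and 1 (0.292%) was lower, beside the same backgrounds.

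The remaining genes are grouped by what their products do. The groups were made after the values were seen, so their counts are descriptions. In complemented against csld5, 46 of all 72 genes were lower and 2 higher. Over all tested genes these shares were 21.1% and 19.8%. No group was tested against either share. Both genes of acyl-lipid metabolism were among the largest falls. GPAT5 (AT3G11430, chromosome 3, 3595694 to 3597952, plus strand), a glycerol-3-phosphate acyltransferase needed for suberin, was at 3.05, 4.2 and 4.39 CPM in col-0 and at 64.2, 57.6 and 60.0 CPM in csld5, against 23.3, 13.4 and 7.03 CPM in complemented. Every complemented library lay between the other groups. The fall from csld5 was -2.16 ± 0.27 (edgeR adjusted p = 6.2e-05), which left 18.9% of the excess, the smallest share of the 72. AAE11 (AT1G66120, chromosome 1, 24612620 to 24614805, plus strand), of the acyl-activating enzyme family, was at 7.28, 12.1 and 12.8 CPM in csld5 and at 5.15, 1.39 and 1.36 CPM in complemented. It was below 0.40 CPM in every col-0 library, and the fall was -2.12 ± 0.40 (edgeR adjusted p = 0.0011). Without complemented replicate 1, GPAT5 no longer met the selection rule, while AAE11 did.

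The 250 bases before the starts of these 2 genes are shown beside those of AT5G35935, which fell less and kept 86.4% of its excess. They come from the RefSeq TAIR10.1 genome and read 5′ to 3′ on the strand of the gene, at chr3:3595444-3595693 (plus), chr1:24612370-24612619 (plus) and chr5:14089892-14090141 (minus). Capitals mark TATAAA, the core of a TATA box, or its reverse complement TTTATA.
GPAT5: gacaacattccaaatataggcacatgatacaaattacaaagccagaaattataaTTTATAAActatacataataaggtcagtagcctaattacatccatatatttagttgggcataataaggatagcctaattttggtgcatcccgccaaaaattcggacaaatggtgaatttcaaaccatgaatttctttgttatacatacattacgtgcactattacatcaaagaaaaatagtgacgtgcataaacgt
AAE11: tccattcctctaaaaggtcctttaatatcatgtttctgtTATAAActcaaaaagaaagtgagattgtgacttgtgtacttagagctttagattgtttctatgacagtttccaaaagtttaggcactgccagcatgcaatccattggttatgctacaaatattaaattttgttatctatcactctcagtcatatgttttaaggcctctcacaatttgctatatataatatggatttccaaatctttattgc
AT5G35935: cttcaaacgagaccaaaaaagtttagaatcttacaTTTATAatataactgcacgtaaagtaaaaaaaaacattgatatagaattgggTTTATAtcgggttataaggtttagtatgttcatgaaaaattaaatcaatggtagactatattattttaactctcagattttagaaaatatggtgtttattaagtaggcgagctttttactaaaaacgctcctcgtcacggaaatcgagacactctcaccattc
On either strand, TATAAA occurred in 59.7% of the 72 windows and in 45.9% of the windows of all listed nuclear genes. The short motif AGAAA, known from the tomato pollen promoter LAT52, occurred in 90.3% against 82.1%, and the G-box CACGTG in 2.78% against 6.69%. Such matches describe the letters of the windows only.

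Of 10 genes of specialised metabolism, 8 were lower in complemented than in csld5 and none was higher, with a median of -1.64. TPS14, a linalool synthase of flowers, was at 16.7, 19.5 and 19.4 CPM in col-0 and at 107, 124 and 113 CPM in csld5, against 81.7, 58.6 and 42.4 CPM in complemented. The groups did not overlap, and the fall was -1.01 ± 0.16 (edgeR adjusted p = 0.00031), leaving 44.0% of the excess. TPS14 overlaps AT1G61670 in the annotation. In all, 13 of the 72 overlap another annotated gene, CWINV2 and AT2G35765 among them. Whether reads were counted by strand is not stated in the sources used here. CYP76C3, a cytochrome P450 that oxidises linalool, was at 36.4, 30.8 and 29.2 CPM in csld5 and at 15.5, 9.44 and 5.04 CPM in complemented. It fell by 1.79 on the log2 scale (edgeR adjusted p = 0.0003). TPS21, a caryophyllene synthase of the flower, was at 31.3, 37.8 and 29.6 CPM in csld5 and at 29.5, 13.9 and 9.96 CPM in complemented, so that replicate 1 alone stood at the csld5 level. Its difference of -0.99 ± 0.28 (edgeR adjusted p = 0.012) was not called without complemented replicate 2 (adjusted p = 0.053).

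AT3G55870, of the family that includes anthranilate synthase, had one of the largest ratios. It was at 0.0469, 0.229 and 0.0563 CPM in col-0 and at 7.23, 5.15 and 3.89 CPM in csld5, against 3.43, 1.39 and 0.482 CPM in complemented. Its 3 groups did not overlap, and it was lower in complemented than in csld5 by -1.72 ± 0.49 (edgeR adjusted p = 0.012), a call that DESeq2 did not make (adjusted p = 0.071). AT2G38240, a dioxygenase-family gene, was at 17.4, 15.1 and 11.6 CPM in csld5 and at 7.05, 3.79 and 3.24 CPM in complemented. It fell by 1.74 on the log2 scale (edgeR adjusted p = 0.00021). AT1G30710, a berberine-family oxidase, had a complemented mean of 1.12 CPM and was not called (-1.02 ± 0.45, edgeR adjusted p = 0.086) except without csld5 replicate 1 (-1.33, adjusted p = 0.030) or col-0 replicate 3 (-1.03, adjusted p = 0.046). AT1G01980, the other gene of that family and the nearest to CSLD5, was lower by -1.80 ± 0.30 (edgeR adjusted p = 0.00041).

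Of 8 cell wall genes, 7 were lower in complemented than in csld5 (46 of all 72) and 1 was not called. Their median was -1.21. AT5G50040, an invertase or pectin methylesterase inhibitor, was at 0.656, 0.780 and 0.703 CPM in col-0 and at 18.3, 15.7 and 10.6 CPM in csld5, against 9.05, 3.17 and 2.76 CPM in complemented. The groups did not overlap, and the fall was -1.67 ± 0.34 (edgeR adjusted p = 0.0017). The pectate lyase AT59 fell by 1.25 on the log2 scale, the inhibitor APPB1 by 1.17, the cell wall invertase CWINV2, which splits sucrose outside the cell, by 1.17, and the endoglucanase-family gene GH9B11 by 1.46. GH9B11 was not called when csld5 replicate 2 or 3, or complemented replicate 2 or 3, was left out, with adjusted p from 0.069 to 0.077. Nor was it called with the GC and length correction (-1.22, edgeR adjusted p = 0.051). AT5G20390, a glycosyl hydrolase, was at 1.76, 0 and 0.482 CPM in the complemented libraries and at 1.48, 2.94 and 2.18 CPM in csld5. Its col-0 libraries held at most 0.0563 CPM, and complemented replicate 2 lay among them. It was the only one of the 72 whose complemented libraries were not all above col-0, and it was not called (-1.63 ± 0.71, edgeR adjusted p = 0.082) except without complemented replicate 1 (-3.18, adjusted p = 0.0064) and in TPM with a pseudocount of 1.

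Of 6 transporters, 5 were lower in complemented than in csld5, with a median of -1.48. AT3G22910, an E1-E2 type ATPase (a family of ion pumps), was at 6.54, 11.3 and 8.22 CPM in col-0 and at 124, 109 and 95.5 CPM in csld5, against 54.2, 33.1 and 17.7 CPM in complemented. The groups did not overlap, and the fall was -1.74 ± 0.28 (edgeR adjusted p = 0.00032). The cation/proton exchanger CHX23, which acts in pollen tubes, was at 9.26, 16.2 and 14.0 CPM in csld5 and at 6.47, 3.31 and 4.42 CPM in complemented. It fell by 1.57 on the log2 scale (edgeR adjusted p = 0.00016). STP11, a sugar transporter of pollen tubes, fell by 1.78 and the exchangers CHX6A and ATCHX8 by 1.15 and 1.40, whereas ATCHX13 was not called (-0.41 ± 0.44).

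Of 6 signalling genes, 5 were lower in complemented than in csld5, with a median of -1.26. LYK2, a receptor-like kinase with LysM motifs, was at 3.56, 4.23 and 5.24 CPM in csld5 and at 1.53, 1.71 and 0.963 CPM in complemented, without overlap. It fell by 1.73 on the log2 scale (edgeR adjusted p = 0.0011). AT5G12000, a predicted kinase, fell by 1.46 and PERK6, a proline-rich receptor kinase, by 1.49. RALFL26, a small secreted peptide of the RALF family, was at 1.69, 4.10 and 2.91 CPM in csld5 and at 5.17, 2.56 and 2.93 CPM in complemented. Its groups overlapped and it was not called (0.20 ± 0.32, edgeR adjusted p = 0.64). Of the 2 transcription genes, MYB108, a regulator of stamen maturation, was at 18.5, 14.6 and 14.3 CPM in csld5 and at 12.3, 8.96 and 3.33 CPM in complemented, and fell by 1.05 on the log2 scale (edgeR adjusted p = 0.015). MEE65, a Brf1-like gene, was not called.

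Among the 16 genes of other functions, 11 were lower in complemented than in csld5 (46 of all 72) and 5 were not called. MLP168, of the major latex protein family, was the most abundant of the 72. It was at 35.9, 49.6 and 46.1 CPM in col-0 and at 219.8, 229 and 169 CPM in csld5, against 222, 126 and 89.6 CPM in complemented. Complemented replicate 1 lay within the csld5 range and the other 2 below it. The difference of -0.60 ± 0.24 was not called (edgeR adjusted p = 0.060), and without complemented replicate 1 it was -1.03 (adjusted p = 0.00071). It was also called with the GC and length correction (adjusted p = 0.0022), with limma on log2(TPM + 1) (adjusted p = 0.0495), with a block for replicate number (adjusted p = 0.030) and without csld5 replicate 3 (adjusted p = 0.049). Over the 19 alternatives the difference ran from -1.05 to -0.34. AT1G60740, of the thioredoxin superfamily, was at 27.6, 12.5 and 12.5 CPM in complemented and 27.7, 26.7 and 17.4 CPM in csld5. It was not called (-0.54 ± 0.28, edgeR adjusted p = 0.14) except under 3 alternatives, among them the one without complemented replicate 1 (-1.03, adjusted p = 0.0045). The subtilisin-like protease gene AT1G66210 fell by 1.49.

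Of the 13 uncharacterised protein-coding genes, 5 were lower in complemented than in csld5, 1 (AT1G27565) was higher and 7 were not called. AT5G12960 had the largest fall of these, from 6.67, 13.7 and 9.63 CPM in csld5 to 4.57, 2.61 and 2.45 CPM in complemented (-1.73 ± 0.27, edgeR adjusted p = 0.00025). AT2G35765 was at 14.6, 13.8 and 9.43 CPM in csld5 and at 22.0, 11.2 and 10.2 CPM in complemented. Its groups overlapped, and complemented replicate 1 was the highest of all libraries. AT1G19500 was at 4.75, 5.30 and 3.32 CPM in csld5 and at 5.54, 4.46 and 3.83 CPM in complemented, also with overlap (-0.05 ± 0.20, edgeR adjusted p = 0.87).

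Genes lay close to each threshold on both sides. At the complemented ratio, AT5G39880 was just inside with 1.502 and PERK6 with 1.51, and AT2G26450 and AT3G28917 were just outside with 1.49 each. At the csld5 ratio, AT3G21570 was inside with 1.55 and RALFL26 with 1.56, and AT1G48020 was outside with 1.41. At the level minimum, AT3G60170 was inside with 0.543 CPM and AT1G80240 outside with 0.478 CPM. In deposited TPM, with the same thresholds, 57 of the 72 met the rule and 71 genes did in all.

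Known pathways of silencing, defence and suberin were examined beside the 72 genes. Of 19 tested genes of DNA methylation and silencing, 3 were higher in csld5 than in col-0 (backgrounds 21.1% higher and 20.4% lower) and none was lower. In complemented against csld5, with backgrounds of 21.1% lower and 19.8% higher, 6 were lower (CMT2, NRPE1, ROS1, MOM1, MORC6 and SGS3) and none was higher. None was called in complemented against col-0, where the backgrounds were 0.948% higher and 0.578% lower. MOM1, which keeps repeats silent, was higher in csld5 by 0.44 ± 0.09 (edgeR adjusted p = 0.0020) and lower in complemented than in csld5 by -0.49 ± 0.09. The list's median log2 fold change was 0.08 for csld5 against col-0 and -0.17 for complemented against csld5, beside -0.02 and 0.02 over all tested genes. Of 11 Polycomb genes and antagonists, SWN was higher in csld5 (0.26 ± 0.05) and LHP1 lower (-0.22 ± 0.07). In complemented against csld5, 2 of the 11 were lower and 1 was higher, and none was called in complemented against col-0.

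Of 13 tested genes of salicylic acid defence, 3 were higher and 3 lower in csld5 than in col-0, with backgrounds of 21.1% and 20.4%. In complemented against csld5, 6 were lower and 1 was higher, with backgrounds of 21.1% and 19.8%. Against col-0, 3 were lower in complemented, with a background of 0.578%. PR2, a glucanase of the defence response, was at 12.8 CPM in csld5 and 1.62 CPM in the complemented line, against 3.49 CPM in col-0, and was thus lower in complemented than in the wild type (-1.13 ± 0.21, edgeR adjusted p = 0.014). Of 9 tested suberin genes, GPAT5, ABCG6 and ABCG20 were higher in csld5 than in col-0, and 4 were lower and 1 higher in complemented than in csld5. The backgrounds were those given for the defence genes. GPAT5 was the only gene of the 4 lists among the 72. Its excess over col-0 was therefore chosen by the selection and is no result of the list. That leaves ABCG6 and ABCG20 as the suberin genes higher in csld5 to be read beside the background. The transporter genes ABCG6 and ABCG20 fell from csld5 to complemented by 1.99 and 1.30 on the log2 scale, and neither was called in complemented against col-0 (0.94 ± 0.28 and 0.39 ± 0.14; edgeR adjusted p = 0.14 and 0.24).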

How the data were processed

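For the 9 libraries the authors deposited a table of raw counts and another of TPM (abundance scaled by transcript length). Per the submitters' processing notes, the tools were Trimmomatic 0.39, HISAT2 2.2.1 and featureCounts 2.0.6, with the TAIR10 build. Strand setting, annotation release and the origin of the TPM table are not stated in the sources used here. The column of col-0 replicate 1 lists 0 genes with no read, where each of the others lists 932 to 1540, so genes unread in that library were not analysed here. Low counts (1 to 19) were even numbers in 71.3% to 74.8% of cases, against 49.6% to 50.8% of counts of 1000 or more, so steps between low values are coarser than single reads.

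The members and gene lists were chosen with earlier results of these data known. CPM was computed on column totals. Tests used edgeR 4.0.16 in R 4.3.3 (default filter, TMM, quasi-likelihood F test, 1 fit of 9 libraries on genotype alone, 22671 genes, Benjamini-Hochberg adjusted p below 0.05). Errors of levels are SDs over 3 libraries and those of log2 fold changes are standard errors. Steps were tested on simulated data. Positions and sequences came from RefSeq TAIR10.1; copies were found with blastn 2.17.0 (95% identity or more over 100 bases or more), and alignments were made with Biopython 1.88. Missing TPM values were taken as 0.

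Genes were named by a rule: CSLD5; the 15 of highest complemented level; the 10 of largest mean ratio; the 10 of smallest p in complemented against csld5; those near CSLD5 or near each other; 3 on each side of each threshold; up to 3 of each gene class; called neighbours and list genes. Some genes that this rule lists are not described above, among them AT1G44542, AT5G54095 and AT4G27580. Other names, given to fill the functional groups, were chosen after their values were seen. Alternatives were other scalings (DESeq2 size factors, library totals), other filters, DESeq2 1.42.0, limma 3.58.1 on log2(TPM + 1) and log2(TPM + 0.1), fits of 2 genotypes, a GC and length correction (mgcv 1.9.3), the replicate number as a block, other selection thresholds, and leaving out each library.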

Additional observations from a re-analysis of the deposited data

How the results depend on the processing

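The 46 falls in complemented against csld5 became 39 to 52 under other scalings, filters and tests and 32 to 53 with a library left out (2 to 3 rises). The 2 rises became 4 with library totals, 0 with the GC and length correction, which turned AT3G05945 to -0.10, and 1 with limma on log2(TPM + 0.1). With the GC and length correction 6015 of all genes were called in place of 9273; with a library left out, 7354 to 9412. The number of genes that met the selection was 14 with a pseudocount of 1 CPM, 192 and 22 with log2 thresholds of 1 and 2, and 34 to 101 with a library left out, lowest without complemented replicate 1. List genes called in csld5 against col-0 were 14, with GPAT5, which the selection chose, among them. They were 22 with the GC and length correction and 12 to 24 with a library left out, highest without csld5 replicate 1. In complemented against csld5 the list count was 21 (16 to 25 with a library left out). In complemented against col-0 the 4 list calls, GPAT5 again included, became 2 and 0 with limma on log2(TPM + 1) and log2(TPM + 0.1). With a library left out they were 1 to 7. The 4 neighbour calls became 2 and 1 with limma and 1 to 6 with a library left out. Neighbour calls in csld5 against col-0 were 56 (45 to 57 with a library left out, 48 with the GC and length correction and 63 with library totals). Same-numbered libraries did not deviate together (correlations -0.106 to 0.196), and with the replicate number as a block 49 of the 72 were lower and 3 higher. The causes were not tested. Depth limits the genes under 1 CPM in col-0.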
